A study of Mus musculus with 16 samples.

Results

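The genes described here are the cytochrome P450 genes of families 2, 3 and 4 in mouse liver, without Cyp2e1. They were chosen by name: every protein-coding gene whose symbol starts with Cyp2, Cyp3 or Cyp4 followed by a letter, where the accession of an array probe could be matched to that symbol. This gave 71 genes with 90 probes, of 20660 named genes and 55681 probes on the array, and 5 further genes of the pattern (Cyp2a5, Cyp2c40, Cyp2c69, Cyp2j12 and Cyp3a41a) had no matched probe. Of the 90 probes, 76 probes of 60 genes were bright enough to test, among 29688 tested probes in all.

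The livers, fixed in formalin and embedded in paraffin, came from female B6C3F1 mice, a cross used in carcinogenicity tests, which were 5 to 6 weeks old when purchased and had at least 7 days to settle. The treated mice received furan, a liver toxicant and carcinogen of rodents, at 8 mg/kg body weight in corn oil by gavage for 21 days, the controls received the corn oil vehicle alone, and all livers were taken 4 hours after the last gavage. In the furan group fixed for 18 h and the corn oil group fixed for 18 h there were 4 livers each, with RNA from 1 section of 10 µm. In the furan group fixed for 3 weeks there were 4 livers, with RNA from 2 sections. The corn oil group fixed for 3 weeks had 4 arrays, also from 2 sections, taken here as 3 livers. The arrays labelled 2.1 and 2.2 were averaged as 1 liver because they share a sample number. The labels do not say that they are 1 liver. Every group carried fixed, fragmented RNA, with integrity numbers between 1.3 and 2.4 per the labels, and the labels do not say whether the same animals were used at both times. A label such as furan 41 or corn oil 2 is the sample number. Each array held 1 liver in red (Cy5) and a pool of all samples in green (Cy3), with no dye swap, so each value below is a log2 ratio of the liver over that pool, and values of different probes are not compared as levels.

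P450 enzymes are heme proteins of the endoplasmic reticulum that take electrons from P450 reductase and add oxygen to their substrates. In the liver, families 2 and 3 act on drugs, other foreign compounds, steroids, bile acids and arachidonic acid, and family 4 mainly hydroxylates fatty acids and eicosanoids. The receptors CAR and PXR switch on members such as Cyp2b10, Cyp2c29 and Cyp3a11, PPARα switches on members of Cyp4a, and several mouse members differ between the sexes through the pattern of growth hormone.

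The share of probes well above background on an array was 51.9 to 55.2% in furan livers and 44.3 to 50.1% in corn oil livers after 18 h, and 35.9 to 41.4% in furan livers and 32.3 to 36.7% in corn oil livers after 3 weeks. No tested spot was saturated, and the number of arrays limits the precision. The 7 tested hepatocyte marker probes, of 6 of the 7 listed genes (Alb, Apoa1, Apob, Ttr, Tf, Serpina1c, Cps1), were well above background on all arrays. At 18 h their summed signal lay between 212457 and 220005 in furan livers, against 276255 to 289331 in corn oil livers. At 3 weeks it lay between 159877 and 183816 in furan livers, against 165955 to 196817 in corn oil livers.

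In livers fixed for 18 h, 40 of the 76 P450 probes differed between furan and corn oil at an adjusted p under 0.05 (52.6%, beside 47.2% of all tested probes). At an unadjusted p under 0.05 there were 45 (59.2%, beside 54.7% of all). With arrays scaled by loess, as for the values given here, the fall was the common direction. It took in 33 probes of 29 genes, 43.4% of the members' probes beside 26.8% of all tested probes, while 7 probes of 7 genes rose, 9.21% beside 20.4% of all. Falls were led by Cyp2d9, Cyp4a10, Cyp4f13, Cyp2d12, Cyp2b9, Cyp2c54, Cyp4a31 and Cyp2c50, and rises by Cyp2a4, Cyp2a12 and Cyp3a11. The median log2 difference was -0.22 over the members and -0.05 over all tested probes. The furan and corn oil livers did not overlap for 36 probes (47.4%, beside 39.2% of all), 6 of them higher (7.89%, beside 17.9%) and 30 lower (39.5%, beside 21.3%). Every called probe had the same sign on both slides, where the members' medians were -0.23 on slide 1 and -0.24 on slide 2. With each array centred on its median instead, 28 P450 probes were called higher and 18 lower. Of all tested probes, 9863 were then called higher and 2680 lower.

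The hepatocyte markers moved with these falls, beside 26.8% of all tested probes lower and 20.4% higher at 18 h. Of their 7 probes, 5 were lower in furan livers at 18 h and 0 were higher, with a median log2 difference of -0.72, and Cps1 (-1.32 ± 0.09, adjusted p = 1.07e-05) and Alb (-0.72 ± 0.10, adjusted p = 2.14e-04) were among them. Their part in the P450 falls was not tested, and fewer hepatocytes cannot be told apart here from less RNA per hepatocyte. The marker differences come from loess-scaled arrays alone. The summed signals are those of the liver channel after loess and a further quantile scaling of brightness between arrays. Median centring moved the bright P450 probes up by a median of 0.53, and its effect on the markers was not tested. Kupffer and macrophage markers had 3 of 9 probes lower and 0 higher, stellate and fibroblast markers 4 of 7 lower and 1 higher, endothelial markers 4 of 7 lower and 1 higher, erythroid markers 3 of 4 lower and 0 higher, cholangiocyte markers 1 of 2 lower and lymphocyte markers 1 of 3 lower. The summed signal of the Kupffer and macrophage list was 7978 to 9788 in furan livers, against 7101 to 12340 in corn oil livers. That of the endothelial list was 7990 to 8628 in furan livers, against 8406 to 10367 in corn oil livers. For stellate and fibroblast markers it was 12659 to 14856 in furan livers, against 13478 to 18262 in corn oil livers, and for erythroid markers it was 2920 to 4152 in furan livers, against 5675 to 9455 in corn oil livers. At 3 weeks 0 of 7 hepatocyte marker probes were called by limma, with a median of -0.28. An unadjusted p under 0.05 held for 2, both lower, beside 13.8% of all tested probes in either direction.

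**Figure D1:**
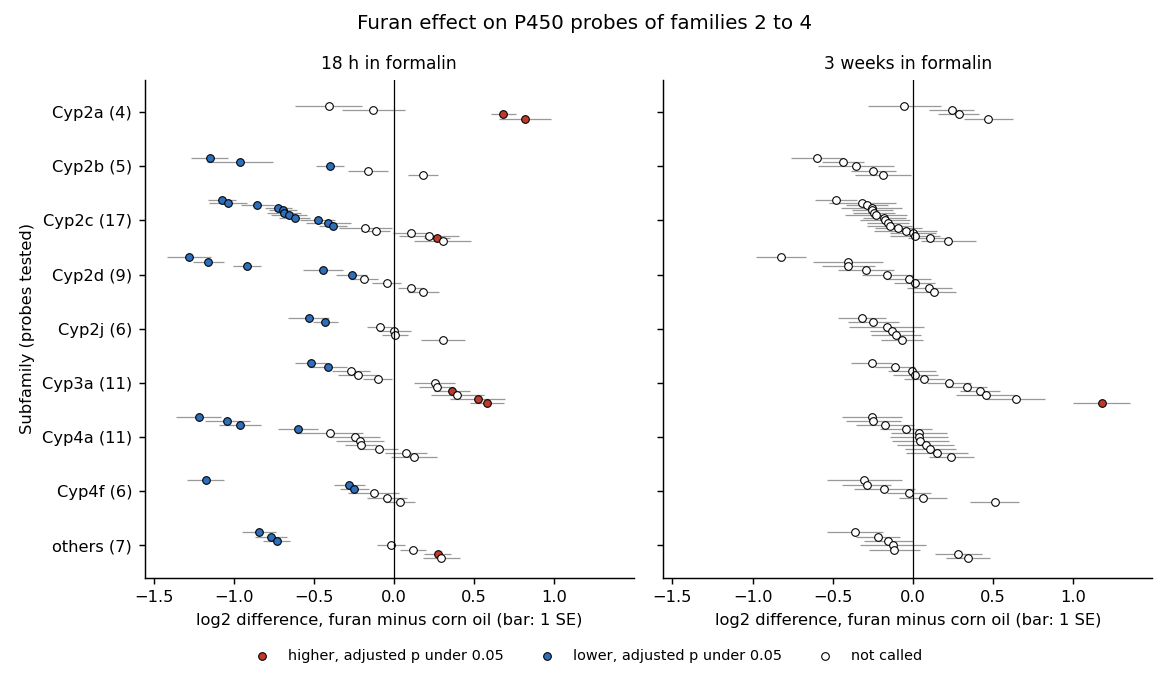
Log2 difference between furan and corn oil livers (horizontal axis) for each of the 76 tested P450 probes, by subfamily, after 18 h in formalin (left) and 3 weeks (right). Points are fitted differences with bars of 1 SE, blue lower and red higher at an adjusted p under 0.05, and white not called. After 18 h most coloured points lie left of 0 in Cyp2b, Cyp2c, Cyp2d and Cyp4a, and after 3 weeks the only coloured point is Cyp3a41b.

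The subfamilies did not move alike. The counts below stand beside 26.8% lower and 20.4% higher among all tested probes at 18 h. These counts and medians come from loess-scaled arrays alone. Cyp2c, the largest with 17 tested probes, had 11 lower and 1 higher at 18 h and a median log2 difference of -0.48. Cyp2d had 5 of 9 probes lower and 0 higher (median -0.26), Cyp2b 3 of 5 lower and 0 higher (median -0.40), Cyp4a 4 of 11 lower and 0 higher (median -0.24), Cyp4f 3 of 6 lower and 0 higher (median -0.19), and Cyp2j 2 of 6 lower and 0 higher (median -0.04). Cyp3a had 3 of 11 higher and 2 lower (median 0.25), and Cyp2a 2 of 4 higher and 0 lower (median 0.28). Among the subfamilies with 1 tested gene, the probes of Cyp2g1, Cyp2u1 and Cyp4v3 were lower, that of Cyp2f2 was higher, and those of Cyp2r1 and Cyp4b1 were not called.

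Cyp2a4, a testosterone 15-alpha-hydroxylase more abundant in female liver, had probes that differed. The probe A_55_P2007326 measured 0.70, 0.42, 0.44 and 0.57 in furan livers, against -0.61, -0.51, -0.24 and 0.22 in corn oil livers after 18 h. After 3 weeks it measured -0.59, -0.75, -0.79 and -1.01 in furan livers, against -1.46, -1.21 and -1.09 in corn oil livers. All furan livers were above all corn oil livers at both times, and the probe rose at 18 h (log2 difference 0.82, SE 0.16, adjusted p = 0.00219) but was not called at 3 weeks (log2 difference 0.47, SE 0.15, adjusted p = 0.223). The other probe, A_52_P9703, measured 0.37, 0.08, 0.21 and 0.40 in furan livers, against 0.02, 0.01, 0.50 and 1.05 in corn oil livers after 18 h. It measured -2.28, -2.63, -2.55 and -2.70 in furan livers, against -2.69, -2.81 and -2.84 in corn oil livers after 3 weeks. Here the groups overlapped at both times, and neither difference was called (log2 difference -0.13, SE 0.20, adjusted p = 0.612 at 18 h, and log2 difference 0.24, SE 0.14, adjusted p = 0.489 at 3 weeks). Cyp2a5 had no matched probe, and it is a close paralog of Cyp2a4, so whether these probes read Cyp2a4 alone is uncertain.

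Cyp2a12, which hydroxylates bile acids and steroids at position 7 in the mouse, measured 0.12, 0.13, 0.23 and 0.27 in furan livers, against -0.45, -0.53, -0.61 and -0.39 in corn oil livers after 18 h. The ratios at 3 weeks were -0.70, -0.70, -0.32 and -0.43 in furan livers, against -0.74, -0.98 and -0.76 in corn oil livers. The groups did not overlap at either time. It rose at 18 h (log2 difference 0.68, SE 0.08, adjusted p = 7.40e-05), and was not called at 3 weeks (log2 difference 0.29, SE 0.13, adjusted p = 0.352). Cyp2a22, the remaining tested gene of the subfamily, was not called at either time.

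In the Cyp2b subfamily, the pair Cyp2b9 and Cyp2b13, both more abundant in female than in male liver, fell together at 18 h, while Cyp2b10 was not called. The promoters of Cyp2b9 and Cyp2b13 are shown because the pair is nearly identical in sequence. In RefSeq's GRCm38.p6 windows of 250 bases before the start of transcription, 248 of 250 aligned positions were the same, and capitals mark the bases that differ. The Cyp2b9 window is chr7:26173159-26173408, plus strand, and the Cyp2b13 window is chr7:26061245-26061494, plus strand.
Cyp2b9: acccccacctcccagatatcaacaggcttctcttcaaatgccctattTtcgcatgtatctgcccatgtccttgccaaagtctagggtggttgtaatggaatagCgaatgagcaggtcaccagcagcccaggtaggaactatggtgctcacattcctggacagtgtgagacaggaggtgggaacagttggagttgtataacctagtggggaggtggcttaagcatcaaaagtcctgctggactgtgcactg
Cyp2b13: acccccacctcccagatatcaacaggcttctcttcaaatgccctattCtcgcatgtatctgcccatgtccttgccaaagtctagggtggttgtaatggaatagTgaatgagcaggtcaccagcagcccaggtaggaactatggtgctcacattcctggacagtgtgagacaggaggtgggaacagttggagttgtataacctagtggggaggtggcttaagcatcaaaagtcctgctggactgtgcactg

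Cyp2b9 measured -0.20, -0.19, -0.43 and -0.00 in furan livers, against 0.91, 0.74, 1.13 and 0.99 in corn oil livers after 18 h. The 3-week livers gave -1.94, -1.91, -2.07 and -1.93 in furan livers, against -1.59, -1.35 and -1.65 in corn oil livers. Furan livers were below corn oil livers at both times without overlap. The log2 difference was -1.15 ± 0.12 (SE) at 18 h, a fall with adjusted p = 4.25e-05, and -0.43 ± 0.13 at 3 weeks, which was not called (adjusted p = 0.203). The difference between these effects was 0.71 ± 0.17 (adjusted p = 0.0117). Cyp2b13 measured 0.31, -0.43, -0.25 and 0.38 in furan livers, against 0.56, 0.84, 1.29 and 1.17 in corn oil livers after 18 h. With 3 weeks in formalin it measured -1.09, -1.36, -1.64 and -1.08 in furan livers, against -0.61, -0.68 and -0.79 in corn oil livers. It fell at 18 h (log2 difference -0.96, SE 0.21, adjusted p = 0.00333) and was not called at 3 weeks (log2 difference -0.60, SE 0.16, adjusted p = 0.181), again without overlap at either time. Whether each probe reads 1 gene of the pair alone was not tested.

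Cyp2b10, the member best known for its induction through CAR by phenobarbital-like compounds, measured 0.45, 0.27, 0.20 and 0.64 in furan livers, against 0.38, 0.52, 0.48 and 0.83 in corn oil livers after 18 h. In the 3-week livers the ratios were -1.69, -1.68, -1.78 and -1.42 in furan livers, against -1.51, -1.43 and -1.25 in corn oil livers. The groups overlapped at both times, with log2 difference -0.16, SE 0.12, adjusted p = 0.306 at 18 h and log2 difference -0.25, SE 0.14, adjusted p = 0.478 at 3 weeks. With arrays centred on their median the 18 h difference was 0.39 and was called higher. Cyp2b23 was lower at 18 h (-0.40 ± 0.09, SE), a call not made with that centring (0.01), and Cyp2b19 was not called.

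Cyp2c held the largest number of falls. Cyp2c29 and Cyp2c37, arachidonic acid epoxygenases that phenobarbital induces, sit with Cyp2c50 and Cyp2c54 among genes expressed around the central vein. Cyp2c29 measured 0.66, 0.52, 0.23 and 0.23 in furan livers, against 1.102, 1.05, 1.07 and 0.91 in corn oil livers after 18 h. After 3 weeks it measured -1.41, -1.62, -1.69 and -1.64 in furan livers, against -1.25, -1.46 and -1.62 in corn oil livers. The groups separated at 18 h, where it fell (log2 difference -0.62, SE 0.10, adjusted p = 4.76e-04), and overlapped at 3 weeks (log2 difference -0.14, SE 0.14, adjusted p = 0.71). The 18 h fall was not called when arrays were centred on their median.

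For Cyp2c37, the probe A_51_P498882 measured 0.04, -0.00, -0.19 and -0.22 in furan livers, against 0.89, 0.55, 0.85 and 0.74 in corn oil livers after 18 h. The ratios at 3 weeks were -0.51, -0.43, -0.27 and -0.23 in furan livers, against -0.14, -0.46 and -0.00 in corn oil livers. The second probe, A_55_P1964483, measured 0.23, 0.26, -0.04 and 0.05 in furan livers, against 0.87, 0.93, 0.95 and 0.64 in corn oil livers after 18 h. Both probes separated the groups at 18 h and fell (-0.85 ± 0.10 and -0.72 ± 0.08, SE, with adjusted p = 1.24e-04 and 9.48e-05). With arrays centred on their median the second was -0.20 and not called. At 3 weeks the second probe measured -1.17, -1.26, -1.42 and -1.53 in furan livers, against -0.92, -0.99 and -1.26 in corn oil livers. Neither probe was called at 3 weeks (-0.16 ± 0.13 and -0.29 ± 0.13, SE), and the groups overlapped for both.

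Cyp2c50 measured 0.05, -0.21, -0.28 and -0.39 in furan livers, against 1.000, 0.68, 1.01 and 0.64 in corn oil livers after 18 h. The 3-week livers gave -0.07, 0.09, -0.03 and 0.04 in furan livers, against 0.35, 0.15 and 0.26 in corn oil livers. Furan livers were below corn oil livers without overlap at both times, but only the 18 h fall was called (log2 difference -1.04, SE 0.12, adjusted p = 8.32e-05, beside log2 difference -0.24, SE 0.13, adjusted p = 0.443 at 3 weeks). The effects at the 2 times differed from each other (difference of differences 0.79, SE 0.17, adjusted p = 0.0079).

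Cyp2c54 was the gene whose probes were called in opposite directions at 18 h. Probe A_52_P154580 measured -0.33, -0.26, -0.35 and -0.42 in furan livers, against 0.81, 0.57, 0.80 and 0.76 in corn oil livers. Probe A_55_P1993419 measured 0.16, 0.10, 0.09 and 0.05 in furan livers, against -0.07, -0.29, -0.17 and -0.15 in corn oil livers. These groups did not overlap for either probe, one falling (log2 difference -1.07, SE 0.09, adjusted p = 1.78e-05) and the other rising (log2 difference 0.27, SE 0.08, adjusted p = 0.0212). The rise was lost under 6 alternatives, at adjusted p up to 0.288, among them without corn oil 3 (0.23, adjusted p = 0.063) or furan 41 (0.24, adjusted p = 0.059). The third probe fell as well (-0.69 ± 0.09, SE). At 3 weeks A_52_P154580 measured 0.30, 0.17, 0.40 and -0.29 in furan livers, against 0.86, 0.22 and 0.30 in corn oil livers. At that time A_55_P1993419 measured -0.77, -0.63, -0.72 and -0.98 in furan livers, against -0.54, -0.59 and -0.66 in corn oil livers. Both probes overlapped between the groups there and neither was called (-0.32 ± 0.21 and -0.18 ± 0.13, SE).

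Cyp2c38 had probe A_55_P2116272 at 0.52, 0.25, -0.04 and 0.01 in furan livers, against 0.88, 0.74, 1.08 and 0.68 in corn oil livers after 18 h. With 3 weeks in formalin it measured -0.96, -1.11, -1.44 and -1.20 in furan livers, against -0.74, -0.57 and -0.79 in corn oil livers. It fell at 18 h (log2 difference -0.66, SE 0.11, adjusted p = 8.54e-04) and was lower without overlap but not called at 3 weeks (log2 difference -0.48, SE 0.13, adjusted p = 0.183). With arrays centred on their median the 18 h difference was -0.12 and not called. Its second, dimmer probe, A_52_P468564, fell at 18 h too. Cyp2c55, inducible through CAR and PXR, measured -0.16, 0.23, -0.02 and 0.40 in furan livers, against 0.07, -0.05, 0.43 and 0.71 in corn oil livers after 18 h. After 3 weeks, where it was well above background on 1 of 4 furan arrays and 0 of 4 corn oil arrays, it measured -0.39, -0.93, -0.77 and -0.51 in furan livers, against -0.96, -1.02 and -0.62 in corn oil livers. The groups overlapped at both times and no difference was called (log2 difference -0.18, SE 0.17, adjusted p = 0.395 at 18 h, and log2 difference 0.22, SE 0.17, adjusted p = 0.611 at 3 weeks). Of the other tested genes, Cyp2c39 and Cyp2c66 fell at 18 h, Cyp2c67 fell on 1 of 2 probes, and Cyp2c23, Cyp2c68 and Cyp2c70, which makes muricholic acids in the mouse, were not called. Cyp2c66 was well above background on only 1 corn oil array at 18 h.

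Cyp2d9, a testosterone 16-alpha-hydroxylase known from male mouse liver, showed the largest fall of all members at 18 h. It measured -0.45, -0.67, -0.26 and -0.97 in furan livers, against 0.73, 0.66, 0.65 and 0.74 in corn oil livers after 18 h. In the 3-week livers the ratios were -0.51, -0.67, -0.46 and -1.42 in furan livers, against -0.11, -0.22 and -0.76 in corn oil livers. The 18 h groups lay far apart (log2 difference -1.28, SE 0.14, adjusted p = 5.72e-05), and the 3-week groups overlapped (log2 difference -0.40, SE 0.22, adjusted p = 0.454). The difference between the times was not called (difference of differences 0.88, SE 0.29, adjusted p = 0.0532).

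Cyp2d12 measured 0.03, 0.00, -0.34 and -0.26 in furan livers, against 1.08, 0.93, 1.06 and 0.997 in corn oil livers after 18 h. After 3 weeks it measured -0.63, -1.06, -0.92 and -1.33 in furan livers, against -0.45, -0.69 and -0.94 in corn oil livers. It fell without overlap at 18 h (log2 difference -1.16, SE 0.10, adjusted p = 1.78e-05), overlapped at 3 weeks (log2 difference -0.29, SE 0.17, adjusted p = 0.493), and the effects differed (difference of differences 0.87, SE 0.19, adjusted p = 0.00883). Cyp2d22 fell at 18 h as well (log2 difference -0.92, SE 0.09, adjusted p = 3.33e-05). For Cyp2d34, probe A_55_P2041350 measured 0.43, -0.05, 0.35 and 0.13 in furan livers, against 0.79, 0.80, 0.50 and 0.56 in corn oil livers after 18 h. The ratios at 3 weeks were 0.36, -0.04, -0.36 and 0.05 in furan livers, against 0.90, 0.96 and 0.63 in corn oil livers. It fell at 18 h (log2 difference -0.44, SE 0.12, adjusted p = 0.0128). At 3 weeks it was well above background on 0 of 4 furan arrays and 3 of 4 corn oil arrays. Furan signals were therefore set to the lowest signal among probes well above background, or the probe's own where higher. The mean signal of the liver channel alone was then 1.67-fold lower in furan livers. This ratio has no error estimate and is open to dye bias. The difference was not called (log2 difference -0.82, SE 0.16, adjusted p = 0.0808). The second Cyp2d34 probe was not called at either time (0.18 ± 0.10 at 18 h, SE). Cyp2d11 fell slightly at 18 h, and Cyp2d10, Cyp2d26 and Cyp2d40 were not called.

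**Figure D2:**
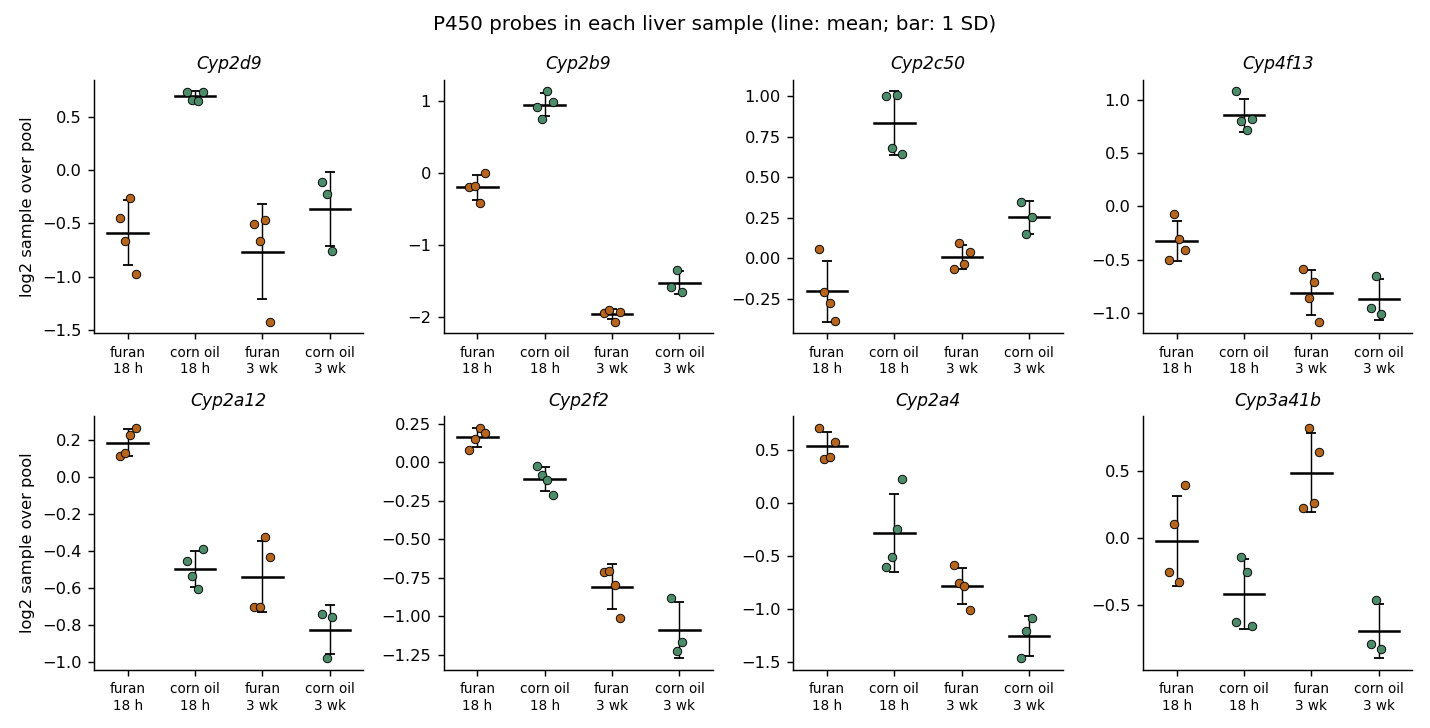
Log2 ratio of each liver over the pool (vertical axis) for 8 P450 probes in the 4 groups, with a line at the mean and a bar of 1 SD over 4 livers (3 in corn oil at 3 weeks). The furan livers lie below all corn oil livers at 18 h for Cyp2d9, Cyp2b9, Cyp2c50 and Cyp4f13 and above them for Cyp2a12, Cyp2f2 and the Cyp2a4 probe shown (A_55_P2007326), and at 3 weeks they lie above them for Cyp3a41b.

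Cyp2f2, which oxidizes naphthalene in the mouse and is expressed around the portal tract, was one of the 7 rises at 18 h. It measured 0.08, 0.15, 0.22 and 0.19 in furan livers, against -0.03, -0.09, -0.12 and -0.22 in corn oil livers after 18 h. The 3-week livers gave -0.71, -0.71, -0.80 and -1.02 in furan livers, against -0.88, -1.22 and -1.17 in corn oil livers. All 18 h furan livers were above the corn oil livers (log2 difference 0.27, SE 0.08, adjusted p = 0.0195), and at 3 weeks the groups overlapped at a like difference that was not called (log2 difference 0.28, SE 0.15, adjusted p = 0.422). The 18 h call was lost under 7 alternatives, at adjusted p up to 0.237: without corn oil 6 (log2 difference 0.22, adjusted p = 0.0552), without furan 43 (0.25, adjusted p = 0.0594), without background subtraction, with Agilent's ratios, without the filter on dim probes and on each slide alone.

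Cyp2u1, a long-chain fatty acid hydroxylase, measured -0.26, -0.09, -0.09 and -0.08 in furan livers, against 0.69, 0.79, 0.37 and 0.69 in corn oil livers after 18 h. With 3 weeks in formalin it measured -0.63, -0.39, -1.07 and -0.59 in furan livers, against -0.25, -0.93 and -0.46 in corn oil livers. It fell at 18 h without overlap (log2 difference -0.77, SE 0.10, adjusted p = 1.88e-04) and overlapped at 3 weeks (log2 difference -0.12, SE 0.21, adjusted p = 0.847). Cyp2j5, an arachidonic acid epoxygenase, measured -0.59, -0.32, -0.17 and 0.20 in furan livers, against 0.21, 0.23, 0.20 and 0.62 in corn oil livers after 18 h. In the 3-week livers the ratios were 0.16, 0.48, 0.20 and 0.25 in furan livers, against 0.40, 0.39 and 0.42 in corn oil livers. It was called lower at 18 h although the groups overlapped (log2 difference -0.53, SE 0.13, adjusted p = 0.00548), and it was not called at 3 weeks (log2 difference -0.13, SE 0.13, adjusted p = 0.73). Cyp2j6 fell at 18 h too, and Cyp2j8, Cyp2j9 and both Cyp2j13 probes were not called. Cyp2g1, known as a P450 of the olfactory mucosa, fell at 18 h (log2 difference -0.84, SE 0.11, adjusted p = 1.64e-04).

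Cyp2r1, a vitamin D 25-hydroxylase, was not called on either probe. Probe A_55_P1966755 measured -0.48, -0.50, -0.11 and -0.14 in furan livers, against -0.31, -0.62, -0.49 and -0.28 in corn oil livers after 18 h. Probe A_55_P2201676 measured 0.20, -0.04, 0.18 and 0.26 in furan livers, against 0.19, 0.13, 0.03 and 0.32 in corn oil livers after 18 h. Both overlapped between the groups (0.12 ± 0.08 and -0.02 ± 0.09, SE). After 3 weeks A_55_P1966755 measured 0.68, 0.92, 0.82 and 0.79 in furan livers, against 0.33, 0.46 and 0.59 in corn oil livers. At the same time A_55_P2201676 measured -0.53, -1.095, -0.69 and -0.90 in furan livers, against -0.66, -0.66 and -0.74 in corn oil livers. The first probe was then above the corn oil livers in every furan liver but was not called (log2 difference 0.34, SE 0.14, adjusted p = 0.301), and the second overlapped (log2 difference -0.12, SE 0.16, adjusted p = 0.81).

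In Cyp3a, the subfamily that carries most drug oxidation, Cyp3a11, the main PXR target and the mouse counterpart of human CYP3A4, gave opposite signs on its probes. Probe A_55_P2121225 measured -0.08, -0.05, -0.02 and 0.20 in furan livers, against -0.79, -0.61, -0.50 and -0.39 in corn oil livers after 18 h. Probe A_51_P355301 measured 0.22, 0.36, -0.07 and 0.43 in furan livers, against 0.34, 0.43, 0.64 and 0.59 in corn oil livers after 18 h. The first rose without overlap (log2 difference 0.58, SE 0.11, adjusted p = 0.00139), and the second overlapped and was not called (log2 difference -0.27, SE 0.12, adjusted p = 0.0854). At 3 weeks A_55_P2121225 measured -0.24, -0.16, -0.23 and -0.14 in furan livers, against -0.66, -0.45 and -0.47 in corn oil livers. At 3 weeks A_51_P355301 measured -1.52, -1.47, -1.50 and -1.45 in furan livers, against -1.83, -1.87 and -2.01 in corn oil livers. On both probes every furan liver was then above every corn oil liver, but neither was called (0.34 ± 0.13 with adjusted p = 0.29, and 0.42 ± 0.13 with adjusted p = 0.207).

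Cyp3a13 split in the same way. Probe A_55_P2185826 measured 0.24, 0.41, 0.38 and 0.32 in furan livers, against -0.24, 0.09, -0.16 and 0.21 in corn oil livers after 18 h. Probe A_55_P2185821 measured -0.02, 0.17, 0.03 and -0.06 in furan livers, against 0.07, 0.03, 0.19 and 0.24 in corn oil livers after 18 h. The first was higher (log2 difference 0.36, SE 0.11, adjusted p = 0.0204) and the second was not called (log2 difference -0.10, SE 0.09, adjusted p = 0.366). At 3 weeks A_55_P2185826 measured -1.08, -0.97, -0.78 and -0.67 in furan livers, against -0.69, -0.65 and -0.51 in corn oil livers. At 3 weeks A_55_P2185821 measured 0.47, 0.49, 0.38 and 0.16 in furan livers, against 0.24, 0.08 and 0.13 in corn oil livers. No difference was called at that time (-0.26 ± 0.13 and 0.23 ± 0.14, SE). The call on the first probe was lost without any 1 of corn oil 2, corn oil 4, furan 42 or furan 43, with log2 differences between 0.27 and 0.35 and adjusted p between 0.052 and 0.0639, and on each slide alone, at adjusted p up to 0.145.

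Cyp3a41b, a member more abundant in female liver, was the only P450 probe called after 3 weeks. It measured 0.22, 0.82, 0.26 and 0.64 in furan livers, against -0.79, -0.46 and -0.83 in corn oil livers after 3 weeks. After 18 h it measured -0.25, 0.11, -0.33 and 0.39 in furan livers, against -0.62, -0.14, -0.25 and -0.65 in corn oil livers. The 3-week groups did not overlap and it was higher in furan livers (log2 difference 1.18, SE 0.18, adjusted p = 0.0477), while the 18 h groups overlapped (log2 difference 0.39, SE 0.17, adjusted p = 0.0713). The difference between the times was not called (difference of differences 0.78, SE 0.25, adjusted p = 0.0535). Leaving out 1 library ended the 3-week call for corn oil 2, corn oil 6, furan 42, furan 43 and furan 44, with log2 differences between 1.07 and 1.24 and adjusted p between 0.146 and 0.306. It also ended with Agilent's own ratios (1.28, adjusted p = 0.238) and on slide 1 alone (1.14, adjusted p = 0.66).

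Cyp3a44, a close relative of Cyp3a41b, measured 0.25, 1.02, 0.29 and 0.49 in furan livers, against -0.05, -0.05 and -0.28 in corn oil livers after 3 weeks. After 18 h it measured -0.42, 0.42, -0.26 and 0.15 in furan livers, against -0.49, -0.31, -0.62 and -0.78 in corn oil livers. It was higher without overlap but not called at 3 weeks (log2 difference 0.64, SE 0.18, adjusted p = 0.193), and called higher at 18 h although the groups overlapped (log2 difference 0.52, SE 0.17, adjusted p = 0.0285). That 18 h call was lost without corn oil 4, corn oil 6, furan 42 or furan 44, at adjusted p between 0.0799 and 0.0874 and log2 differences between 0.37 and 0.47, and with Agilent's ratios and on slide 1 alone, at adjusted p up to 0.189. Cyp3a25 measured 0.09, -0.12, -0.07 and 0.11 in furan livers, against -0.07, -0.46, -0.14 and -0.39 in corn oil livers after 18 h. After 3 weeks it measured -0.18, -0.20, -0.48 and -0.52 in furan livers, against -0.31, -0.33 and -0.61 in corn oil livers. Both times overlapped and neither was called (0.27 ± 0.11 and 0.07 ± 0.13, SE). Cyp3a57 and 1 of the 2 Cyp3a59 probes fell at 18 h, and Cyp3a16 was not called.

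The promoters of Cyp3a41b and Cyp3a44 are shown because both probes were above all corn oil livers at 3 weeks and the genes are alike. Their windows of 250 bases in GRCm38.p6, chr5:145584731-145584980, minus strand and chr5:145805875-145806124, minus strand, matched at 237 of 250 positions, and capitals mark the bases that differ.
Cyp3a41b: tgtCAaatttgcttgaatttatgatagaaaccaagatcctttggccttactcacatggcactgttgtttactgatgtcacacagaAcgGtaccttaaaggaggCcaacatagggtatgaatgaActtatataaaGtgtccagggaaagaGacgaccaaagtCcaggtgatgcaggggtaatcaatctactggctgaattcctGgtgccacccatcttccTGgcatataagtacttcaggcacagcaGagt
Cyp3a44: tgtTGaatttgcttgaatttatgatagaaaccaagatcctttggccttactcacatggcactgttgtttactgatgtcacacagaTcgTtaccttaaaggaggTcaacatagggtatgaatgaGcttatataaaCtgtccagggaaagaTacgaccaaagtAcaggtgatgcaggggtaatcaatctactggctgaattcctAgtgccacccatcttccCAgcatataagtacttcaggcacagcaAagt
The Cyp3a41a window matched that of Cyp3a41b at 249 of 250 positions. Cyp3a41a had no matched probe, so whether the Cyp3a41b probe reads 1 or both of these genes is uncertain.

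Cyp4a enzymes hydroxylate fatty acids at the end of the chain and are classical PPARα targets. Cyp4a10 had 3 tested probes. Probe A_55_P2092030 measured -0.06, -0.37, -0.84 and -0.18 in furan livers, against 0.95, 0.89, 0.90 and 0.70 in corn oil livers after 18 h. Probe A_51_P254895 measured 0.07, -0.31, -0.49 and -0.00 in furan livers, against -0.13, -0.15, -0.36 and -0.60 in corn oil livers after 18 h. Probe A_55_P2011111 measured 0.04, -0.39, -0.71 and -0.08 in furan livers, against 0.11, 0.04, 0.02 and -0.34 in corn oil livers after 18 h. Only the first separated the groups and fell (log2 difference -1.22, SE 0.14, adjusted p = 9.29e-05), and the others were not called (0.12 ± 0.14 and -0.24 ± 0.15, SE). At 3 weeks A_55_P2092030 measured -1.15, -1.57, -1.56 and -1.28 in furan livers, against -0.85, -1.17 and -1.41 in corn oil livers. The ratios of A_51_P254895 were then 0.38, 0.29, -0.05 and 0.69 in furan livers, against 0.29, 0.27 and 0.31 in corn oil livers. Those of A_55_P2011111 were 0.13, 0.11, -0.42 and 0.34 in furan livers, against 0.35, 0.18 and 0.12 in corn oil livers. All 3 probes overlapped and were not called at 3 weeks (-0.25 ± 0.17, 0.04 ± 0.18 and -0.17 ± 0.18, SE).

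Cyp4a31 repeated this pattern, with 2 of 3 probes lower at 18 h. Probe A_55_P1952399 measured 0.36, -0.02, -0.50 and 0.07 in furan livers, against 1.06, 1.24, 1.01 and 0.78 in corn oil livers after 18 h. The ratios at 3 weeks were -0.93, -1.42, -1.42 and -0.999 in furan livers, against -1.08, -1.47 and -1.28 in corn oil livers. It fell at 18 h (log2 difference -1.04, SE 0.14, adjusted p = 2.32e-04), was near 0 at 3 weeks (log2 difference 0.08, SE 0.18, adjusted p = 0.889), and the effects differed (difference of differences 1.12, SE 0.24, adjusted p = 0.00815). The probe A_55_P2024033 fell by 0.96 on the log2 scale at 18 h, and A_55_P2050628 was not called (0.07 ± 0.13, SE). Cyp4a32 fell at 18 h as well.

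Cyp4a14, the member most readily induced through PPARα, was not called. It measured 0.53, -0.09, -0.01 and 0.57 in furan livers, against 0.57, 0.44, 0.43 and 0.41 in corn oil livers after 18 h. The 3-week livers gave -1.001, -1.41, -1.56 and -0.93 in furan livers, against -0.80, -0.99 and -1.13 in corn oil livers. The groups overlapped at both times (log2 difference -0.21, SE 0.15, adjusted p = 0.26, and log2 difference -0.25, SE 0.19, adjusted p = 0.589). Cyp4a12a, the 20-HETE synthase of male mice, measured -0.60, -0.59, -0.09 and -0.64 in furan livers, against 0.43, 0.08, -0.16 and -0.68 in corn oil livers after 18 h. With 3 weeks in formalin it measured -0.21, -0.28, 0.05 and -0.29 in furan livers, against 0.18, -0.52 and -0.33 in corn oil livers. It overlapped and was not called at either time (-0.40 ± 0.21 and 0.04 ± 0.18, SE). Cyp4a12b and Cyp4a29 were not called.

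Cyp4f13 had the largest difference between the 2 furan effects. It measured -0.51, -0.08, -0.31 and -0.41 in furan livers, against 1.08, 0.80, 0.72 and 0.82 in corn oil livers after 18 h. In the 3-week livers the ratios were -0.59, -0.86, -0.71 and -1.08 in furan livers, against -0.95, -0.65 and -1.01 in corn oil livers. The fall at 18 h was -1.18 ± 0.11 (SE, adjusted p = 3.75e-05), the 3-week difference was 0.06 ± 0.15 and not called, and the effects differed by 1.24 ± 0.19 (adjusted p = 0.00146). Cyp4f14, a leukotriene B4 omega-hydroxylase, measured 0.12, 0.37, 0.27 and 0.32 in furan livers, against 0.28, 0.33, 0.08 and 0.24 in corn oil livers after 18 h. After 3 weeks it measured -1.67, -1.68, -1.70 and -1.74 in furan livers, against -1.47, -1.68 and -1.87 in corn oil livers. Its groups overlapped at both times (log2 difference 0.04, SE 0.09, adjusted p = 0.767, and log2 difference -0.02, SE 0.14, adjusted p = 0.964). Cyp4f16 measured 0.10, -0.42, -0.18 and -0.09 in furan livers, against -0.71, -0.72 and -0.55 in corn oil livers after 3 weeks. After 18 h it measured -0.44, -0.27, -0.11 and 0.10 in furan livers, against 0.28, -0.01, 0.02 and -0.50 in corn oil livers. It was higher without overlap at 3 weeks but was not called (log2 difference 0.51, SE 0.15, adjusted p = 0.204). It was well above background on 2 of 4 furan arrays and 0 of 4 corn oil arrays. Lower corn oil signals were raised to the lowest signal among probes well above background. The mean liver-channel signal was then 1.21-fold higher in furan livers, a ratio without an error estimate. Cyp4f15 and Cyp4f17 fell slightly at 18 h, and Cyp4f18 was not called.

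Cyp4v3, the mouse counterpart of the human fatty acid hydroxylase CYP4V2, measured 0.12, 0.14, -0.00 and -0.08 in furan livers, against 0.63, 0.88, 0.76 and 0.84 in corn oil livers after 18 h. The ratios at 3 weeks were -1.61, -1.52, -1.80 and -1.92 in furan livers, against -1.33, -1.56 and -1.59 in corn oil livers. It fell without overlap at 18 h (log2 difference -0.73, SE 0.09, adjusted p = 9.24e-05) and overlapped at 3 weeks (log2 difference -0.22, SE 0.14, adjusted p = 0.531). The 18 h fall was not called with arrays centred on their median.

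After 3 weeks in formalin, 1 of the 76 P450 probes was called, as higher (1.32%, beside 0.0876% of all tested probes and 0.118% in either direction), and 0 were called lower (0.0303% of all). At an unadjusted p under 0.05 there were 14, of which 9 were higher and 5 lower, 18.4% of the members beside 13.8% of all tested probes. The groups did not overlap for 14 probes (18.4%, beside 13.4% of all), 8 higher (10.5%, beside 7.54%) and 6 lower (7.89%, beside 5.85%). The members' median log2 difference was -0.11, beside 0.00 for all tested probes, and the within-group spread was somewhat wider than at 18 h, with a median SD over members of 0.18 in furan livers and 0.18 in corn oil livers, against 0.16 in each group at 18 h.

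The furan effects at 3 weeks and 18 h, compared directly, differed for 16 P450 probes. These were 21.1% of the members, beside 12.8% of all tested probes. In 14 of them the 3-week effect was higher (18.4%, beside 7.82% of all tested probes), and in 2 it was lower (2.63%, beside 4.93% of all). The 14 were probes of Cyp2b9, Cyp2c37 (2 probes), Cyp2c50, Cyp2c54 (2 probes), Cyp2d12, Cyp2d22, Cyp3a11, Cyp4a10, Cyp4a31 (2 probes), Cyp4f13 and Cyp4v3, and all but the Cyp3a11 probe had fallen at 18 h. The smallest p belonged to Cyp4f13, followed by Cyp4a31 (1.07 ± 0.23 on A_55_P2024033, SE), Cyp2c50, Cyp4a31 (1.12 ± 0.24 on A_55_P1952399), Cyp2d22 (0.76 ± 0.17), Cyp2d12, Cyp2b9 and Cyp4a10 (0.97 ± 0.23). An unadjusted p under 0.05 held for 30 members (39.5%, beside 28.6% of all). On either slide alone 0 probes were called by limma, with 24 on slide 1 and 12 on slide 2 at an unadjusted p under 0.05.

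The members were also sorted by what controls them, with 26.8% of all tested probes lower and 20.4% higher at 18 h. These counts and medians come from loess-scaled arrays alone. Of the 7 probes of CAR and PXR targets (Cyp2b10, Cyp2c29, Cyp2c37, Cyp2c55 and Cyp3a11), 3 fell and 1 rose, with a median log2 difference of -0.27. Of the 8 probes of PPARα targets (Cyp4a10, Cyp4a14, Cyp4a31 and Cyp4a32), 4 fell and 0 rose (median -0.42). Of the 7 probes of female-predominant members, 2 rose (Cyp2a4, Cyp3a44) and 2 fell (Cyp2b9, Cyp2b13), and of the 4 male-predominant probes 2 fell (Cyp2d9, Cyp2u1) and 0 rose. Among the 9 probes of members expressed around the central vein, 6 fell and 2 rose. Of these members, Cyp2c29, Cyp2c37 and Cyp3a11 are also on the CAR and PXR list, so the 2 counts share probes. The members' periportal gene, Cyp2f2, rose on its 1 probe, a call lost under 7 alternatives. At 3 weeks 0 probes of these lists were called lower, and only Cyp3a41b was called higher. An unadjusted p under 0.05 held for 2 higher CAR and PXR target probes and for 4 higher and 2 lower female-predominant probes. It held for 13.8% of all tested probes, in either direction.

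Genes that supply or control P450s are given by counts beside the shares of all tested probes at 18 h, 26.8% lower and 20.4% higher. Their counts and values come from loess-scaled arrays alone, and the effect of median centring on them was not tested. Of the 7 probes of electron donors and membrane partners, 3 rose and 3 fell. Pgrmc1, a heme-binding partner of P450s, rose (0.84 ± 0.11, adjusted p = 1.96e-04), and Cyb5r3, the reductase of cytochrome b5, fell (-0.47 ± 0.08, adjusted p = 7.96e-04). Cyb5b fell on 1 probe (-0.62 ± 0.08, adjusted p = 2.27e-04) and rose on the other (0.44 ± 0.08, adjusted p = 0.00149). P450 reductase itself, Por, was not called (-0.13 ± 0.13, adjusted p = 0.45).

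Among 16 probes of heme synthesis and breakdown, 6 fell and 3 rose, and the log2 differences ran from -1.08 to 0.89. Ppox (-1.08 ± 0.11, adjusted p = 4.64e-05) and Alad (-0.88 ± 0.09, adjusted p = 5.25e-05), which make heme, fell, as did the heme oxygenase Hmox2 (-0.88 ± 0.10, adjusted p = 6.62e-05). Alas1, the rate-limiting enzyme of heme synthesis in liver, was not called on its 2 probes (-0.07 ± 0.30, adjusted p = 0.858 and -0.31 ± 0.17, adjusted p = 0.149).

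Of 21 probes of nuclear receptors and liver factors, 6 fell and 4 rose, close to those shares. Rxra, the partner of CAR, PXR and PPARα, fell on A_51_P307370 (-1.32 ± 0.10, adjusted p = 1.16e-05) and was not called on its other probe (0.06 ± 0.11, adjusted p = 0.644). CAR itself, Nr1i3, fell on both of its probes (-0.84 ± 0.10, adjusted p = 8.45e-05 and -0.85 ± 0.11, adjusted p = 1.44e-04), and Hnf4a rose (0.87 ± 0.09, adjusted p = 3.67e-05). The dioxin receptor Ahr fell (-0.68 ± 0.09, adjusted p = 2.04e-04). The single regulator of sex-dependent genes called among 9 probes was Socs2, which growth hormone induces (-1.02 ± 0.34, adjusted p = 0.0304). The furan and corn oil livers overlapped for Socs2, and 7 of the 9 probes had differences above 0. Of 13 probes of PPARα targets outside the P450s, 5 fell and 0 rose, with Cpt1a of fatty acid import into mitochondria (-0.71 ± 0.11, adjusted p = 5.57e-04) among them. At 3 weeks 0 probes of these 5 lists were called by limma, beside 0.118% of all tested probes. An unadjusted p under 0.05 held for 1, 3, 2, 1 and 4 of their 7, 16, 21, 9 and 13 probes, in the order given. The share of all tested probes was 13.8%.

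**Figure D3:**
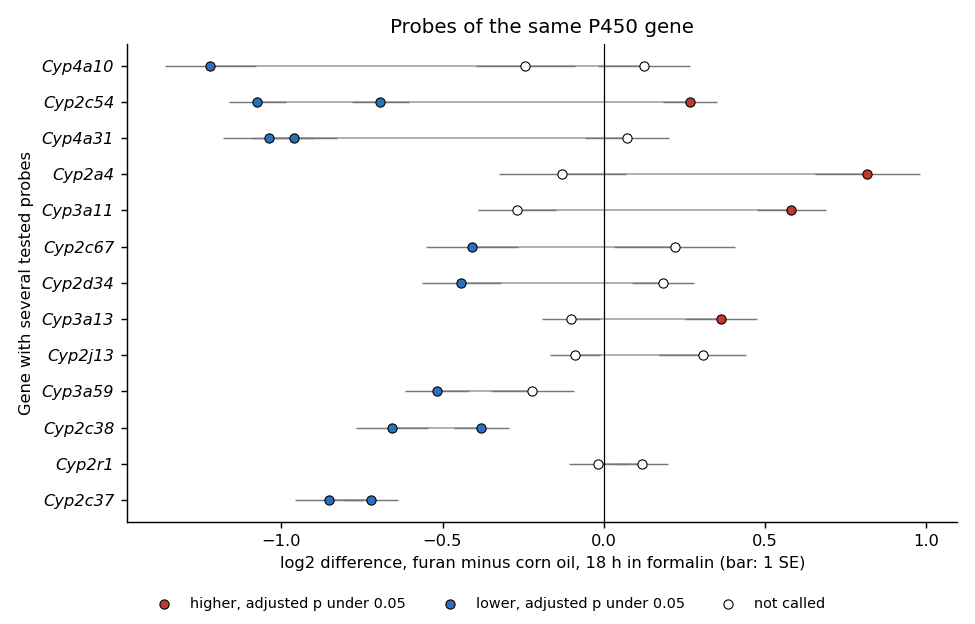
Log2 difference between furan and corn oil livers after 18 h in formalin (horizontal axis, bars of 1 SE) for every tested probe of the 13 P450 genes with several tested probes, joined by a grey line per gene. Cyp4a10, Cyp2c54 and Cyp4a31 have the widest gaps, and Cyp2c37 and Cyp2c38 are lower on both probes.

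The 13 genes with several tested probes show how far a value depends on the probe. At 18 h the probes had opposite signs in 10 of these genes, and the median gap between a gene's highest and lowest log2 difference was 0.63. In 1 gene, Cyp2c54, probes were called both ways, and in 8 genes some probes were called and others not. At 3 weeks 4 of the 13 had opposite signs, with a median gap of 0.23. For the formalin comparisons the median gap was 1.49 in furan livers and 1.46 in corn oil livers, and probes were called both ways in 5 and 3 genes.

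**Figure D4:**
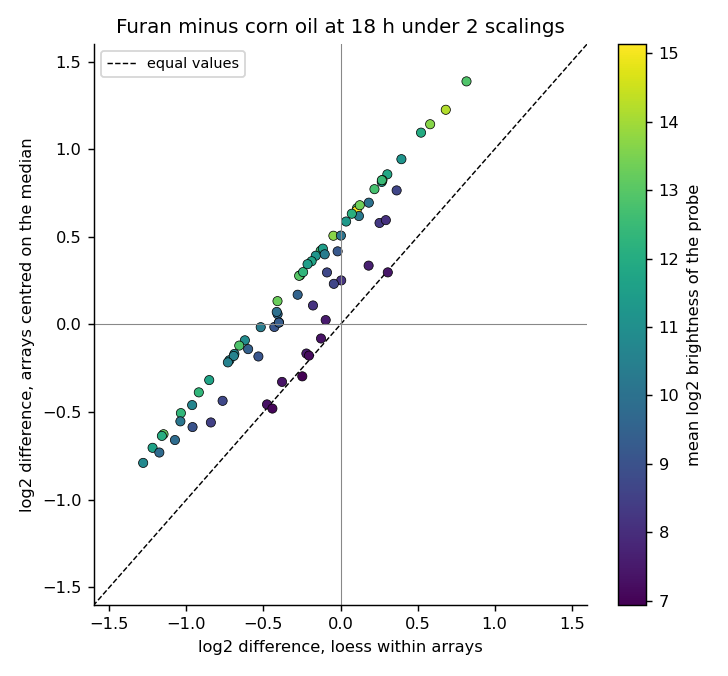
Log2 difference between furan and corn oil livers after 18 h for the 76 P450 probes with loess within arrays (horizontal axis) and with each array centred on its median (vertical axis), coloured by mean log2 brightness. Bright probes lie above the dashed line of equal values, by a median of 0.53 for the 57 probes with a brightness of 9 or more.

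The split of calls at 18 h, and the direction of some differences, depended on the scaling of the arrays. The P450 probes were bright, with a median log2 brightness of 10.55 beside 8.06 for all tested probes. With each array centred on its median instead of loess, the difference of a member moved by -0.05 to 0.57, upward for 73 of 76 probes. The split of calls became 28 higher and 18 lower, beside 9863 higher and 2680 lower of all tested probes. Of the calls with that centring, 60.9% were higher among the members and 78.6% among all tested probes. The members' median was 0.15, beside 0.10 for all tested probes. The sign turned for 21 probes, of which 6 were then called higher (Cyp2b10, Cyp2c23, Cyp2d26, Cyp2d40, and 1 probe each of Cyp2r1 and Cyp3a13) and 5 had been called lower (Cyp2b23, Cyp2d11, Cyp3a57, Cyp4f15 and 1 probe of Cyp2c67). Those 5 falls and 10 more were not called with that centring: Cyp2c29, Cyp2c39, Cyp2j5, Cyp2j6, Cyp4a32, Cyp4v3 and 1 probe each of Cyp2c37, Cyp2c38, Cyp2c54 and Cyp3a59. The authors' deposited values gave 14 higher and 30 lower, beside 7758 higher and 6336 lower of all tested probes. No probe called in one direction was called in the other under any of the 5 scalings. The 20 calls that all 5 scalings shared were 4 rises (Cyp2a12, Cyp2a4, Cyp3a11 and Cyp3a13, each of the last 3 on 1 probe) and 16 falls (Cyp2b9, Cyp2b13, Cyp2c37 on A_51_P498882, Cyp2c38 on A_52_P468564, Cyp2c50, Cyp2c54 on A_52_P154580, Cyp2d9, Cyp2d12, Cyp2d22, Cyp2d34 on A_55_P2041350, Cyp2g1, Cyp2u1, Cyp4a10 on A_55_P2092030, Cyp4f13 and 2 probes of Cyp4a31). Under median centring the median of all tested probes was 0.10 in place of -0.05.

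The longer time in formalin went with lower ratios for most P450 probes in both treatments. In furan livers, 45 of the 76 probes were lower after 3 weeks than after 18 h (59.2%, beside 32% of all tested probes) and 13 were higher (17.1%, beside 35.1% of all). In corn oil livers 52 were lower (68.4%, beside 30.8% of all) and 6 were higher (7.89%, beside 28.6% of all). The median log2 difference of the members was -0.67 in furan livers and -0.83 in corn oil livers, while the medians of all tested probes were 0.03 and 0.00. With arrays centred on their median the split in furan livers was 5 higher and 56 lower, beside 4307 higher and 14163 lower of all tested probes. The members' median was then -1.31, beside -0.29 for all tested probes. The called probes were 58 in each treatment, 76.3% of the members beside 67.1% of all tested probes in furan livers and 59.4% in corn oil livers. An unadjusted p under 0.05 held for 60 members in furan livers (beside 70% of all) and 59 in corn oil livers (beside 63.6%). The times did not overlap for 52 members in furan livers (beside 57.7% of all), 6 higher (beside 29.8%) and 46 lower (beside 27.8%), and for 59 in corn oil livers (beside 58.6%), 9 higher (beside 28.6%) and 50 lower (beside 30%). Of the called probes, 43 were lower in both treatments and 6 higher in both. The number of sections per RNA sample changed with the time in formalin, so these cannot be told apart. The hepatocyte markers had 4 of 7 probes lower in furan livers, with 2 higher, and 4 of 7 lower in corn oil livers, with 0 higher, and their part in the P450 values was not tested.

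**Figure D5:**
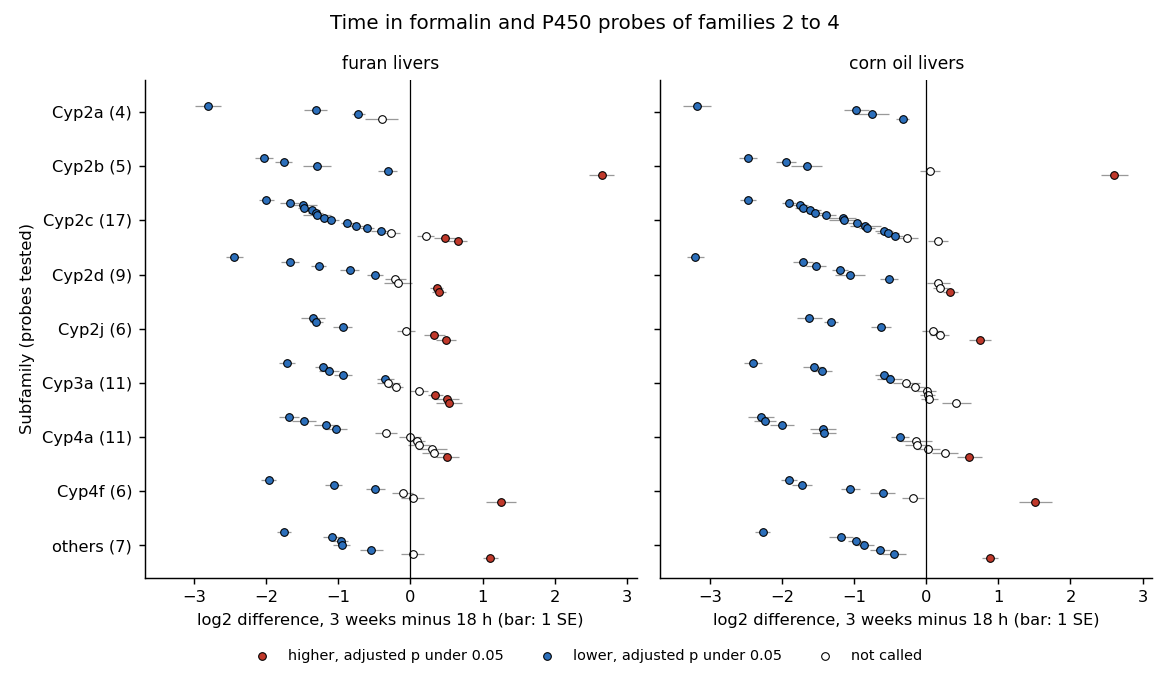
Log2 difference between 3 weeks and 18 h in formalin (horizontal axis, bars of 1 SE) for the 76 tested P450 probes by subfamily, in furan livers (left) and corn oil livers (right). Coloured points are called, blue lower and red higher, and most lie left of 0 in both panels, with Cyp2b23 farthest to the right at 2.65 and 2.61.

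Among the largest formalin differences, Cyp2d22 averaged -2.27 ± 0.16 in furan livers after 3 weeks and 0.17 ± 0.15 after 18 h (SD, n = 4 each), and -2.12 ± 0.21 (SD, n = 3) in corn oil livers after 3 weeks and 1.09 ± 0.04 (SD, n = 4) after 18 h. The probe A_52_P9703 of Cyp2a4 was lower by a like amount, with log2 differences of -2.81 ± 0.18 in furan livers and -3.18 ± 0.20 in corn oil livers (SE). Its other probe, A_55_P2007326, had smaller differences of -1.32 ± 0.16 and -0.97 ± 0.17. Cyp2c29 (-1.998 ± 0.11 in furan and -2.48 ± 0.11 in corn oil livers), Cyp2b10 (-2.03 ± 0.12 and -1.95 ± 0.13), Cyp4f14 (-1.97 ± 0.10 and -1.91 ± 0.11), Cyp2b9 (-1.76 ± 0.11 and -2.47 ± 0.12) and the Cyp3a11 probe A_51_P355301 (-1.72 ± 0.11 and -2.41 ± 0.12) were also among the 5 largest falls of a treatment.

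Some members went the other way. All 5 scalings shared 3 of the 13 rises in furan livers and 4 of the 6 in corn oil livers. Cyp2b23 averaged 1.37 ± 0.30 in furan livers after 3 weeks and -1.29 ± 0.10 after 18 h (SD, n = 4 each), and was higher by 2.65 ± 0.18 in furan livers and 2.61 ± 0.19 in corn oil livers (SE). Cyp4f18, known from neutrophils (1.25 ± 0.21 and 1.51 ± 0.23), and the Cyp2r1 probe A_55_P1966755 (1.11 ± 0.10 and 0.88 ± 0.11) were higher in both treatments too, while the second Cyp2r1 probe was lower (-0.95 ± 0.12 and -0.86 ± 0.13). Cyp3a44 (0.54 ± 0.18) and Cyp2c66 (0.65 ± 0.13) were among the 5 largest rises in furan livers, and Cyp4a10 on A_51_P254895 (0.60 ± 0.17) and Cyp2j13 on A_55_P1968250 (0.74 ± 0.15) in corn oil livers. Cyp2c66 was near the floor, well above background on 1 furan array and no corn oil array after 3 weeks. Its rise was lost under 1 alternative (adjusted p = 0.0679). The Cyp3a44 rise was lost without furan 41 at 18 h (log2 difference 0.36, adjusted p = 0.0731) or furan 42 at 3 weeks (0.38, adjusted p = 0.069), and with arrays centred on their median it was -0.0068. Cyp4b1 was well above background on all 18 h arrays and on 0 arrays after 3 weeks, and it was called lower (-1.09 ± 0.13 in furan livers and -0.64 ± 0.14 in corn oil livers, SE), as was Cyp2c55 in corn oil livers (-1.16 ± 0.18), which was well above background on 0 arrays of that group after 3 weeks.

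By position in RefSeq's annotation of GRCm38, many of these genes lie in runs of neighbours. Their counts at 18 h stand beside 26.8% lower and 20.4% higher among all tested probes. The run from Cyp2c55 to Cyp2c70 on chromosome 19 had 11 of 16 probes lower and 1 higher at 18 h, and the run from Cyp4x1 to Cyp4b1 on chromosome 4 had 4 of 12 lower and 0 higher. On chromosome 15 the run from Cyp2d22 to Cyp2d9 had 3 of 4 lower, and that from Cyp2d12 to Cyp2d26 had 2 of 5 lower. On chromosome 5 the run from Cyp3a57 to Cyp3a59 had 2 of 9 higher and 2 lower. On chromosome 7 the run from Cyp2s1 to Cyp2b9 had 2 of 3 lower, and that from Cyp2b23 to Cyp2t4 had 2 of 6 higher and 2 lower.

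RefSeq promoter windows were matched for 47 of the 60 tested genes, and 6 short words were searched in the 250 bases before the start on both strands, none of them containing another. The HNF4 word CAAAGTCCA was in 6 of 47 windows (12.8%), beside 0.381% of 27025 windows of all genes: Cyp2c67, Cyp2c68, Cyp2c70, Cyp3a11, Cyp3a16 and Cyp3a41b, the last of them 95 bases before the start. The TATA box word TATAAA was in 42.6%, beside 13% of all windows, and the HNF1 word GTTAAT in 8.51%, beside 6.52%. The STAT word TTCNNNGAA was in 4.26% (Cyp4b1 and Cyp4f13), beside 7.18%. The D-box word TTATGTAA and the PPARα-type DR1 word, AGGTCA repeated after a gap of 1 base, were in 0 of 47, beside 0.862% and 0.037% of all windows. These matches describe the windows only, and members of 1 subfamily share sequence.

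The 14 probes that were too dim to test belonged to Cyp2ab1, Cyp2c65, Cyp2j11, Cyp2s1, Cyp2t4, Cyp2w1, Cyp4a30b, Cyp4f37, Cyp4f39, Cyp4f40 and Cyp4x1, and to 1 probe each of Cyp2j6, Cyp2j8 and Cyp2j13. They were well above background on at most 2 arrays of any group.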

How the data were processed

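RNA from 16 fixed liver samples was measured on 2-colour Agilent SurePrint G3 mouse 8x60K arrays. Per the file headers, Agilent Feature Extraction gave for each spot median intensities and local backgrounds per channel and a log10 ratio. The authors also deposited a table of log2 ratios, whose normalization is not given in the sources used here. In it the columns of arrays 2.1 and 2.2 each correlated better with the other's scanner file (r = 0.969 and 0.975, against 0.863 and 0.856). Both arrays were averaged here. Its array medians lay between -0.009 and 0.025, and its direction matched the scanner ratios.

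Median intensities were background-corrected (normexp, offset 50) and loess-normalized within arrays in limma 3.58.1 (R 4.3.3), leaving control and outlier spots out, and spots of a probe were averaged. Signals of the liver channel alone, used for marker sums and fold ratios of dim probes, were also quantile-scaled in brightness between arrays. Probes well above background on at least 3 arrays of a group were tested with limma, slide as covariate, and Benjamini-Hochberg adjustment over 29688 probes, threshold 0.05. Furan comparisons used the livers of their own time, and others all 15 samples. Arrays were of 1 dye orientation, and their lowest correlation over all probes was -0.25. The labels call the livers biological replicates. Probes were named by accession through RefSeq (GRCm38.p6): 27235 of 55681 probes matched a symbol.

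In data simulated on these livers, 200 of 29675 probes were changed. Changes of 2-fold were recovered for 84% of the probes given them at 18 h and 64% at 3 weeks. The simulated noise had 1 SD per probe, pooled over the 4 groups, so it did not carry the wider spread at 3 weeks. Far more probes were called at 18 h in the livers, so these shares are not recovery rates of the comparisons above. The P450 genes and lists were chosen with earlier results of these data known. Values in every sample are given for the P450 probes with the 8 largest called rises or falls without overlap, or the 10 smallest p-values, in a furan comparison, and for a list of 24 genes, without Cyp2a5 and Cyp3a41a, which had no matched probe. Formalin comparisons name the 5 largest rises and falls, and the other lists up to 4 called genes, of which some are not reported here. Alternatives were no background subtraction, median centring, Agilent's or the authors' ratios, other filters, 1 probe per gene, no slide term, single slides, separate arrays 2.1 and 2.2, a replicate block and leaving out each sample.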

Additional observations from a re-analysis of the deposited data

Results flagged for a closer look

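Among 135 groups of 45 probes given above, 4 had a liver set apart from the others of its group by Dixon's test of the gap over the range, 2.96% of groups, where chance gives about 1 in 20. For Cyp2j5 corn oil 6 was the highest of the corn oil livers at 18 h (gap over range 0.922). For Cyp2u1 furan 41 was the lowest of the furan livers at 18 h (0.963), for Cyp4a12a furan 43 was the highest of the furan livers at 18 h (0.91), and for Cyp4a14 corn oil 2 was the highest of the corn oil livers at 18 h (0.833).

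The furan effect at 3 weeks minus that at 18 h, tested by limma as an interaction, was above 0 for 8 named probes. It was 0.71 for Cyp2b9 (adjusted p = 0.0117), 0.79 for Cyp2c50 (adjusted p = 0.0079) and 0.87 for Cyp2d12 (adjusted p = 0.00883). It was 0.76 for Cyp2d22 (adjusted p = 0.0084), 0.97 for Cyp4a10 on A_55_P2092030 (adjusted p = 0.0121) and 1.24 for Cyp4f13 (adjusted p = 0.00146). For Cyp4a31 it was 1.12 on A_55_P1952399 and 1.07 on A_55_P2024033 (adjusted p = 0.00815 and 0.00703).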

How the results depend on the processing

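Calls at 18 h and between the times in formalin varied little in number when 1 liver was left out. They were 35 to 41 P450 probes for furan at 18 h, 54 to 58 for formalin in furan livers and 55 to 59 in corn oil livers. The scaling mattered more, and all 5 scalings shared 20 of the 40 calls for furan at 18 h. For formalin they shared 47 of 58 calls in furan livers, with 3 of the 13 rises, and 55 of 58 in corn oil livers. Median centring gave 28 higher and 18 lower for furan at 18 h, in place of 7 and 33. The cause of the changes below was not tested. For furan at 3 weeks the 1 call became 13 with median centring (12 higher, 1 lower, beside 2082 higher and 235 lower of all tested probes). It became 0 with Agilent's ratios (12 at an unadjusted p under 0.05) and 0 on slide 1 alone (9 unadjusted). With arrays 2.1 and 2.2 separate there were 2, and without 1 liver 0 to 2, by limma in each case. For the difference between the furan effects the 16 calls became 10 with median centring (7 higher, 3 lower), 10 without the filter, 8 with 1 probe per gene, 0 on each slide alone and 11 to 19 without 1 liver. Medians over genes at the brightest probe were 0.68 for Cyp2a, -0.23 for Cyp2d and -0.088 for Cyp2j at 18 h, and 0.28 for Cyp3a at 3 weeks. Median centring turned the sign at 18 h for 21 of 76 probes, 6 of them then called higher, among these Cyp3a13 on A_55_P2185821 (0.40), Cyp2r1 on A_55_P2201676 (0.42) and Cyp2b10 (0.39), and it turned the sign for Cyp3a44 between the times in furan livers (-0.0068). One probe called between the times changed direction, Cyp3a13 on A_55_P2185821 in furan livers, which was called higher (0.35) and with median centring lower (-0.45).

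The replicate block was fitted without the slide term, over livers with the same number at both times. It gave 16 calls for the difference, 61 for formalin in furan livers and 57 in corn oil livers. After group means were removed, what remained of same-numbered livers correlated at 0.019 to 0.18, and at -0.22 to 0.16 after slide was also taken out. Before slide was taken out, 5 of 7 numbers correlated best with themselves. Removing the means of groups this small constrains these correlations, so they cannot decide whether the numbers are pairs. The numbers were not taken as pairs because the labels do not say that they are the same animals. No paired analysis was possible for furan against corn oil within a time because the groups share no numbers. Fewer probes were above background after 3 weeks, which limits what could be measured there.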
